A study of Mus musculus with 2 samples.

Results

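Genes of the endoplasmic reticulum (ER) translocon and of the early secretory pathway were followed in RNA from mouse embryonic forebrain. Members were taken by gene symbol: the subunits of the signal recognition particle (Srp) and its receptor (Srpr), Sec61 to Sec63, the translocon-associated proteins (Ssr), the signal peptidase subunits (Spcs), the coat genes of COPII and COPI, the small GTPases Arf1 to Arf6 and the p24 family (Tmed). This gave 59 protein-coding genes of 43346 gene rows, 21474 of which were protein-coding. The pseudogene Spcs2-ps was left out by the choice of symbols, and Srp54b, a gene of annotation release M21, had no row in the tables. Sec23ip carries a matching symbol but encodes a partner of Sec23 and not a coat subunit; it is counted with COPII here.

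The tissue was forebrain of the strain B6NCrl at embryonic day 11.5, with no treatment and no genetic change named in the labels. The pools held 109 embryos for replicate 1 and 88 for replicate 2, males and females together. Each library was prepared by a SmartSeq protocol from 1 cell-equivalent of total RNA over 200 nucleotides. The labels title the assay as single cell, yet the material is pooled tissue, and each library was therefore read as 1 bulk sample. With one group there is no comparison between conditions. The question the design leaves is at what level each gene was read and how far the libraries differed, and with 1 library per pool a difference between them has no replicate check.

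Proteins bound for the cell surface, for secretion or for the organelles of the secretory route enter the ER as they are made. The signal recognition particle binds the signal sequence of a growing chain and brings the ribosome to its receptor, the Sec61 channel passes the chain through the membrane, and signal peptidase removes the signal. Vesicles coated with COPII carry cargo from the ER towards the Golgi, vesicles coated with COPI, whose coat is recruited by Arf GTPases, carry proteins back, and p24 proteins travel in both. All cells use this route, and in a growing brain it supplies adhesion molecules, receptors and matrix.

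The libraries held 28639678 and 28948074 expected counts (reads as estimated by the quantification, not always whole). Spike-in RNAs took 4.35% and 3.35% of them. Levels are given in TPM, transcripts per 1000000 transcripts, which is scaled by gene length so that genes can be set side by side; paired values are replicate 1 first and replicate 2 second. The forebrain label was checked against marker lists: 7 of 8 telencephalon genes reached 1 TPM in both libraries, with summed levels of 298 and 185 TPM, and all 8 midbrain and hindbrain genes had 0 counts in both. Pax6, Otx2 and Emx2 of the telencephalon list were each 2-fold higher in replicate 1, and Dcx, of the young neuron list, was at 16.1 and 95.6 TPM. Of 8 erythroid genes, 6 were detected in both, with summed levels of 31193 and 37331 TPM, so the pools held RNA of blood cells. Summed levels of 8 genes of mesenchyme and meninges were 452 and 335 TPM, those of 5 surface ectoderm genes 89.0 and 13.6 TPM, and those of 5 myeloid genes 115 and 26.4 TPM. Krt5 and Epcam of the ectoderm list and Ptprc of the myeloid list had 0 counts. The part of these cells in the differences below was not tested. In bulk RNA, fewer cells of a type and less RNA per cell cannot be told apart.

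Most members were read in both libraries, and together they held a similar share of the RNA in each. A gene counted as detected from 1 TPM upwards. In all, 49 of 59 members were detected in both libraries, against 16.6% of all gene rows and 30.4% of protein-coding rows. A further 4 members were detected in one library alone: Sec24b, Copz2 and Tmed9 in replicate 1, and Arf6 in replicate 2. The remaining 6, Sec16b, Sec24d, Sec31b, Tmed6, Tmed8 and Tmed11, had 0 counts in both. A count of 0 allows up to 3 counts, or 0.110 and 0.107 counts per 1000000 gene counts (CPM). The 59 members summed to 5996 and 5613 TPM, a mean of 5804 ± 271 (SD, n = 2), and held 0.851% and 0.830% of the gene counts.

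**Figure D1:**
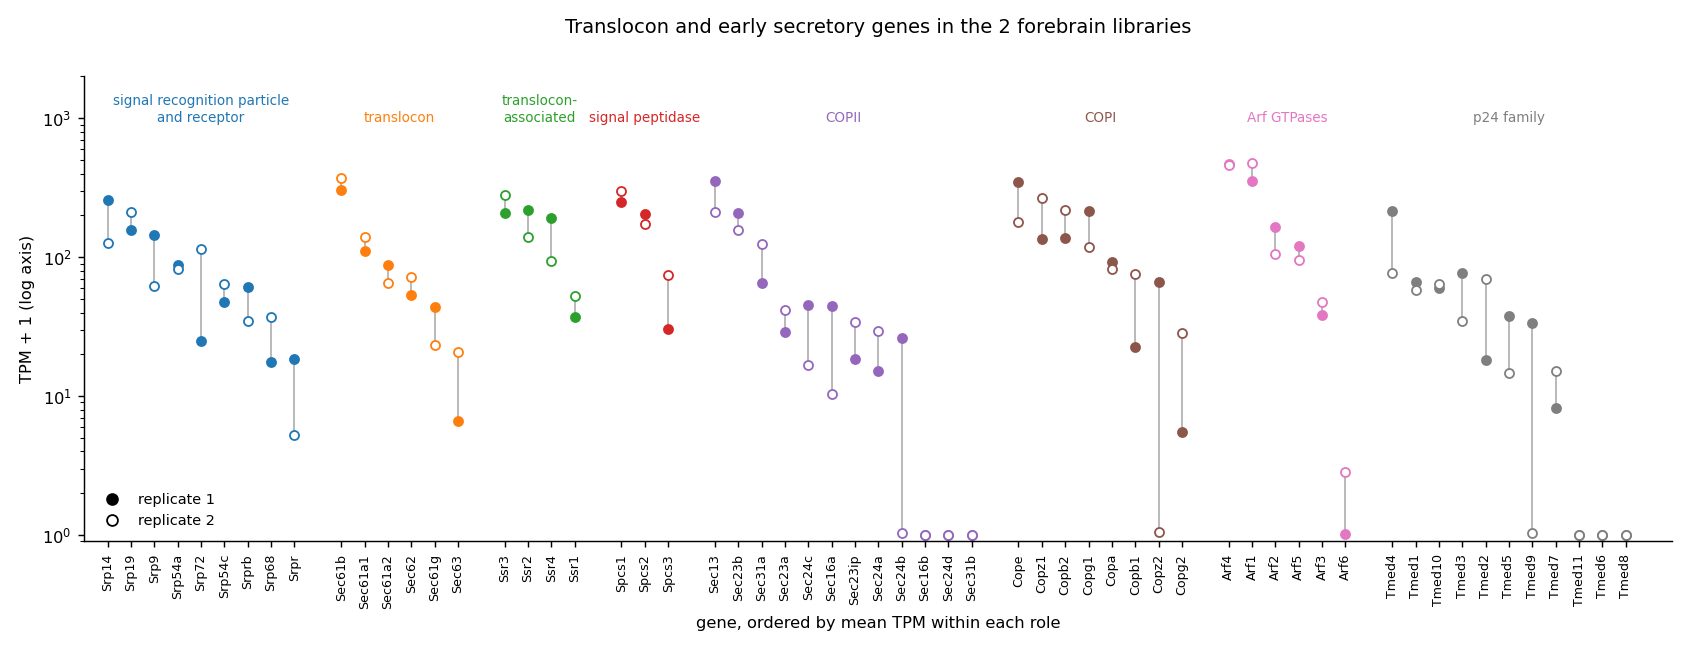
TPM + 1 on a log axis for each of the 59 members, grouped by role and ordered by mean TPM within a role; filled points are replicate 1 and open points replicate 2, joined by a line. Most pairs lie close together at high levels, while Sec24b, Copz2 and Tmed9 drop to near 0 TPM in replicate 2 and 6 members sit at 0 in both libraries.

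For the differences, log2(TPM + 1) in replicate 1 was subtracted from that in replicate 2. The added 1 makes the differences of low genes smaller than they are. Of the 52 members with a mean of 10 TPM or more, 19 differed by 2-fold or more, which is 36.5%, against 51.3% of the 7680 genes at that level. With no filter on level it was 20 of 59 members, or 33.9%, against 16.1% of all gene rows. Of the 19 with a mean of 10 TPM or more, replicate 2 was higher for 7 (Srp68, Srp72, Sec63, Spcs3, Copb1, Copg2 and Tmed2). Among all genes at that level, 26.6% were 2-fold higher in that direction. Replicate 1 was higher for the other 12 (Srp9, Srp14, Srpr, Ssr4, Sec16a, Sec24b, Sec24c, Copz2, Tmed3, Tmed4, Tmed5 and Tmed9), against 24.7% of all genes. The median difference was -0.06 for the members and 0.02 for all genes, and the median absolute difference was 0.88 and 1.04. Just under the threshold stood Copz1 at 0.99, Sec24a at 0.96, Cope at -0.95 and Sec31a at 0.93. Just over it stood Srp14 and Ssr4, both at -1.03, and Srp68 at 1.08.

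The members' share followed their level, as it did for genes at large. From 10 to 20 TPM, 5 of 6 members differed 2-fold, against 75.6% of all genes in that range. From 20 to 50 TPM it was 7 of 14, against 56.1%, and from 50 to 100 TPM 3 of 11, against 42.9%. From 100 to 200 TPM it was 4 of 14, or 28.6%, against 28.9%, and those 4 were Srp9, Srp14, Ssr4 and Tmed4, all higher in replicate 1. From 200 to 500 TPM none of the 7 members (Sec61b, Ssr3, Spcs1, Sec13, Cope, Arf1 and Arf4) differed 2-fold, against 14.7% of all genes. At a mean of 10 TPM or more, Pearson's r of log2(TPM + 1) between the libraries was 0.625 over the 52 members and 0.387 over all 7680 genes. Spearman's rho was 0.789 and 0.516. Genes are not independent replicates, and these values describe the libraries. The 2 sets were not matched for level: 6 of the 52 members lay from 10 to 20 TPM, against 2129 of the 7680 genes.

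**Figure D2:**
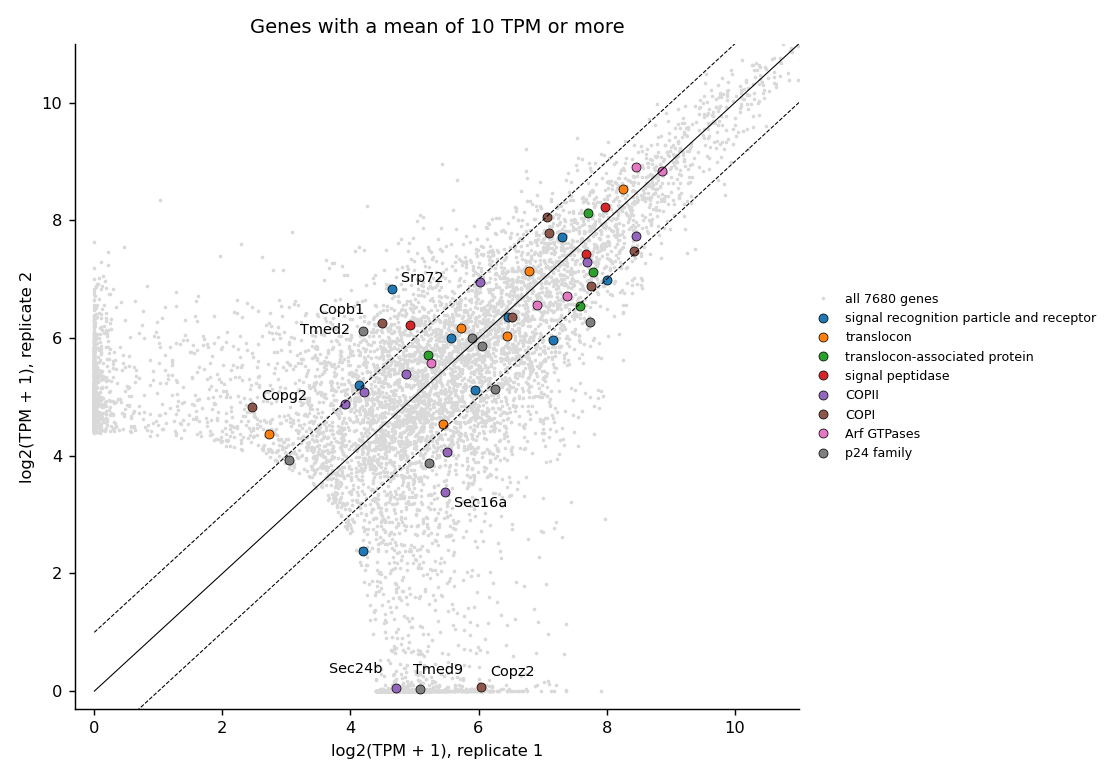
log2(TPM + 1) in replicate 1 against replicate 2 for the 7680 genes at a mean of 10 TPM or more (grey) and the 52 members among them, coloured by role; the solid line marks equality and the dashed lines a 2-fold difference, and the most abundant genes lie outside the frame. The lower members scatter beyond the dashed lines, and Copz2, Sec24b and Tmed9 lie on the lower edge.

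**Figure D3:**
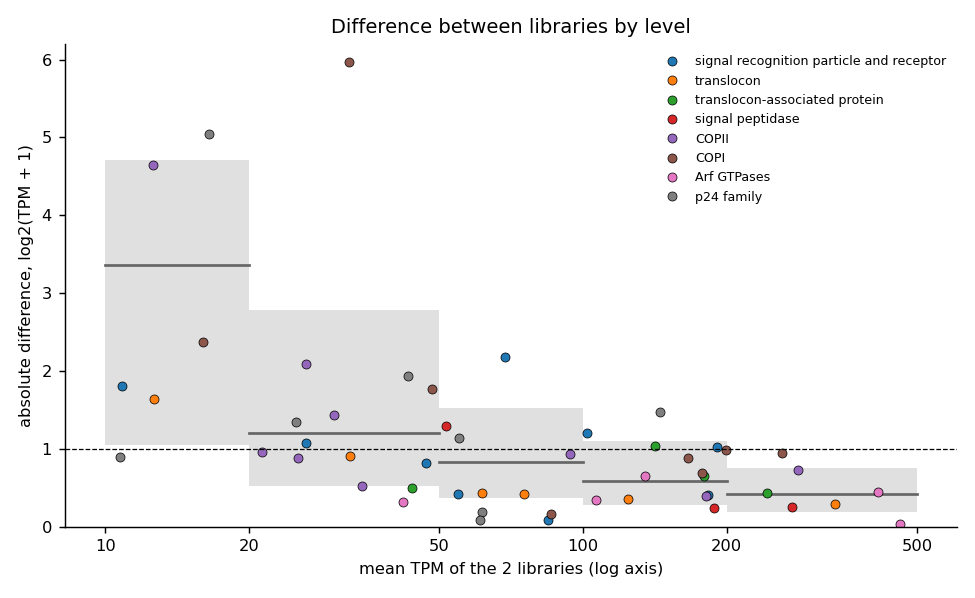
Absolute difference in log2(TPM + 1) against mean TPM on a log axis for the 52 members, coloured by role; the grey boxes span the middle 50% of all genes in 5 ranges of mean TPM, the bars are their medians, and the dashed line marks 2-fold. Members from 200 to 500 TPM all lie under the dashed line, and 5 of 6 from 10 to 20 TPM lie above it.

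All 9 genes of the signal recognition particle and its receptor were detected in both libraries. Their summed level was 809 and 727 TPM, or 768 ± 57.7 (SD, n = 2), and 5 of them differed 2-fold, 2 higher in replicate 2 and 3 in replicate 1, a share near the 51.3% of all genes at that level. Srp14 (chr2:118475850-118479711) and Srp9 (chr1:182124737-182132407) encode the pair of proteins that slows the ribosome until it docks. Srp14 was read at 257 and 125 TPM and Srp9 at 142 and 61.5 TPM, so both were about as much lower in replicate 2. Srp19, which helps Srp54 onto the particle's RNA, stood at 157 and 209 TPM.

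Srp68 and Srp72 bind each other on the particle, and both were higher in replicate 2. Srp68 was at 16.5 and 36.0 TPM, from 844 and 1865 counts. Srp72 (chr5:76974683-76999937) was at 24.1 and 113 TPM, a ratio of 4.68, but its counts of 1401 and 3887 gave a CPM ratio of 2.72 (95% counting interval 2.56 to 2.89). Its leading transcript differed as well: in replicate 1 the retained-intron form Srp72-204, of 2355 bases, held 73.5% of the gene's TPM, and in replicate 2 the retained-intron form Srp72-209, of 660 bases, led with 33.9%. Counting intervals cover counting error only, since several reads can come from 1 molecule where no identifiers mark them.

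Of the receptor genes, Srpr encodes the alpha subunit that docks the particle and Srprb the beta subunit that anchors it in the membrane. Srpr had the lowest mean of the 9 genes, at 17.4 and 4.24 TPM, from 1127 and 231 counts. Srprb was at 60.4 and 33.6 TPM, under 2-fold. Srp54a and Srp54c encode the GTPase that holds the signal sequence, at 87.1 and 81.5 TPM and at 46.7 and 63.1 TPM. These 2 rows cannot be cleanly separated. Of the stretches of 31 bases in Srp54a, 61.6% also occur in Srp54c, and 96.0% of those in Srp54c occur in Srp54b, the gene with no row. In release M21 the leading transcript of the Srp54c row carries the name Srp54b-201. Summed, Srp54a and Srp54c stood at 134 and 145 TPM.

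Of the 6 translocon genes, only Sec63 passed 2-fold, against 51.3% of all genes with a mean of 10 TPM or more. Summed, the 6 genes stood at 599 and 687 TPM, or 643 ± 62.4 (SD, n = 2). Sec61b (chr4:47474658-47483242), the beta subunit of the channel, was the most abundant, at 303 and 370.4 TPM. Sec61a1 (chr6:88503579-88518905) and Sec61a2 encode alternative forms of the alpha subunit that forms the pore itself. Sec61a1 was read at 109 and 140 TPM and Sec61a2 at 86.2 and 64.3 TPM. In both libraries Sec61a1 was the higher, with 55.9% and 68.5% of the pair's TPM, but the leading Sec61a2 transcript was a retained-intron form, Sec61a2-210, with 61.2% and 69.9% of that gene's TPM. In addition, 19.9% of the exon bases of Sec61a2 lie opposite exons of Nudt5, which was at 100.3 and 169 TPM, and strand use in the counting is not given in the sources used here.

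Sec62 and Sec63 help chains through the channel after they are made, and Sec63 recruits the chaperone BiP to the exit. Sec63 was at 5.65 and 19.7 TPM, from 691 and 2254 counts, a TPM ratio of 3.48. Sec62 (chr3:30792875-30821263) changed direction with the unit. It was higher in replicate 2 by TPM, at 52.1 and 70.7, yet higher in replicate 1 by counts, at 3430 and 2306. The estimated effective length of the gene was 2939 bases in replicate 1 and 1470 in replicate 2. The coding transcript Sec62-201, of 3967 bases, held 72.3% and then 27.9% of the gene's TPM, and the retained-intron form Sec62-202, of 639 bases, held 16.9% and then 72.0%.

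Sec61g (chr11:16500530-16508484), the gamma subunit, was read below the other Sec61 subunits, at 42.7 and 22.3 TPM. A second locus bears on that value. Gm10177 (chr9:37252922-37253365) is annotated as a transcribed processed pseudogene, and its transcript Gm10177-202 holds the whole coding sequence of Sec61g, with 207 of 207 bases identical and no gap. This sequence, taken from the transcripts of release M21, is shown because no read that lies inside it can be assigned to either locus by sequence.
Sec61g and Gm10177: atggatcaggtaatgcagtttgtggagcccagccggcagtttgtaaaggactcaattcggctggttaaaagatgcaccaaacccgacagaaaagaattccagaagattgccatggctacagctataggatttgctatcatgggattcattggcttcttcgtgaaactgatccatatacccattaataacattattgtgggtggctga

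The tables gave most of the reads of this pair to the pseudogene. Gm10177 had 3447 and 5250 counts, or 583 and 859 TPM, beside 438 and 322 counts for Sec61g. Summed, both loci stood at 625 and 881 TPM, from 3885 and 5572 counts, above Sec61b in both libraries. The leading Sec61g transcript also differed, with Sec61g-201 at 64.5% of the gene's TPM in replicate 1 and Sec61g-206 at 93.2% in replicate 2. Which locus the RNA came from was not tested.

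Srp9 has a copy of the same kind. The processed pseudogene Gm13736 (chr2:87526145-87526397) is 253 bases long, and all 253 bases match the Srp9 coding sequence of 261 bases. It was read at 198 and 46.8 TPM, from 681 and 160.0 counts, so it too was lower in replicate 2. Summed, Srp9 and Gm13736 stood at 340.1 and 108 TPM, from 4053 and 1835 counts. Since TPM is scaled by length, the short copy weighs more in the TPM sum than in the counts. Sec61b shares 21.1% of its 31-base stretches with Gm10320, which had 16.1 and 24.2 counts, and Tmed2 shares 22.6% with Gm10698, which had 0 and 47.8 counts.

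The 4 translocon-associated proteins, which sit beside the channel and assist some signal sequences, were all detected in both libraries, with summed levels of 653 and 562 TPM. Ssr3, the gamma subunit, was the highest, at 207 and 279 TPM. Ssr2, the beta subunit, was at 219 and 139 TPM. Ssr4, the delta subunit, was at 190.4 and 92.5 TPM and was the one member of the 4 past 2-fold. Among all genes, 51.3% passed it at a mean of 10 TPM or more, and 28.9% from 100 to 200 TPM. Ssr1, the alpha subunit, was the lowest per length, at 36.2 and 51.3 TPM, although its transcript of 9306 bases drew 7458 and 10479 counts. For Ssr2 and Ssr3 a single coding transcript held over 99% of the TPM in both libraries.

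All 3 accessory subunits of signal peptidase were detected, at a summed level of 483 and 544 TPM. Spcs1 was at 249 and 298 TPM and Spcs2 at 204 and 172 TPM, both under 2-fold. Spcs3 (chr8:54520433-54529998) was at 29.5 and 73.7 TPM, from 2220 and 5502 counts. It was the lowest of the 3 in both libraries.

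Of the 12 COPII genes, 3 had no reads in either library, and 3 of the 9 with a mean of 10 TPM or more differed 2-fold, against 51.3% of all genes. All 3 were higher in replicate 1, as were 24.7% of all genes. The 12 summed to 795 and 618 TPM, or 706 ± 125 (SD, n = 2). Sec13 (chr6:113728062-113740743), which with Sec31 builds the outer cage, was the highest, at 352 and 211 TPM. Sec31a was at 64.2 and 124 TPM. Sec23b, of the inner layer that switches the GTPase Sar1 off, was at 206 and 156 TPM, and its paralog Sec23a at 28.2 and 40.8 TPM. Sec23b therefore led its pair in both libraries, with 88.0% and 79.3% of the TPM. Sec23ip was at 17.5 and 33.1 TPM.

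Sec24 proteins choose the cargo, and here the leading paralog was not the same in both libraries. Sec24c was at 44.4 and 15.7 TPM. Sec24a was at 14.1 and 28.5 TPM. Sec24b (chr3:129982759-130061553) was at 25.1 and 0.04 TPM, from 2154 and 5 counts, a CPM ratio of 440.0 (95% counting interval 188 to 1356). Sec24d had 0 counts in both. Sec24c thus held 53.0% of the set's TPM in replicate 1, and Sec24a held 64.3% in replicate 2.

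Sec16 marks the ER exit sites where COPII vesicles form. Sec16a (chr2:26409431-26445216) was at 43.3 and 9.40 TPM, and its counts of 3846 and 246 gave a wider CPM ratio of 16.0 (95% counting interval 14.0 to 18.2). Its effective length was 3971 bases in replicate 1 and 1180 in replicate 2, and in each library the leading transcript was a different short processed transcript, Sec16a-204 with 48.4% and Sec16a-203 with 79.1% of the gene's TPM. Sec16b and Sec31b, the paralogs of Sec16a and Sec31a, had 0 counts in both libraries.

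All 8 COPI genes were read in at least one library, and their summed level was nearly the same, at 1011 and 963 TPM, or 987 ± 33.6 (SD, n = 2). Cope, the epsilon subunit, was at 345 and 178 TPM, and Copz1, a zeta subunit, at 133 and 265 TPM. These 2 lay on opposite sides and just under 2-fold. Copb2, the beta prime subunit, was at 136 and 219.5 TPM and Copa, the alpha subunit, at 90.7 and 80.9 TPM. Copb1, the beta subunit, was at 21.4 and 75.3 TPM, from 1542 and 5373 counts, a TPM ratio of 3.52. Only 1 transcript of this gene was quantified, so a change of transcript could not be seen.

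Each of the gamma and zeta subunits has a second gene, and in both cases the major form led in both libraries while the minor form was uneven. Copg1 was at 216 and 117 TPM, and Copg2 (chr6:30747554-30896794) at 4.51 and 27.5 TPM, from 34.8 and 1883 counts. In replicate 1 the short processed transcript Copg2-205, of 215 bases, held 93.9% of the gene's TPM, and in replicate 2 the coding transcript Copg2-201, of 3961 bases, held 79.0%. Of its exon bases, 17.8% lie opposite exons of Mest, an imprinted neighbour with 38542 and 72950 counts, and Copg2 is reported as uncertain. Copz2 (chr11:96849870-96861203) was at 64.8 and 0.05 TPM, from 1206 and 1 counts, a CPM ratio of 1232 (95% counting interval 221 to 48687). Copz1 accordingly held 67.3% of the zeta TPM in replicate 1 and nearly all of it in replicate 2.

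The Arf GTPases, which recruit COPI and other coats to membranes, had the highest summed level of the 8 roles. Their sum was 1140.0 and 1183 TPM, or 1162 ± 30.7 (SD, n = 2). None of the 5 with a mean of 10 TPM or more passed 2-fold, against 51.3% of all genes at that level. The share of all genes was 14.7% from 200 to 500 TPM, the range of Arf1 and Arf4. It was 28.9% from 100 to 200 TPM, the range of Arf2 and Arf5, and 56.1% from 20 to 50 TPM, that of Arf3. Arf4 (chr14:26638074-26665084) was at 467 and 457 TPM, the closest pair of values among the members with a mean of 10 TPM or more. Arf1 (chr11:59211412-59228270) was at 352 and 479 TPM. Arf4 led in replicate 1 with 40.9% of the set and Arf1 in replicate 2 with 40.5%, with the second gene of each library at 30.9% and 38.6%.

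Below them, Arf2 was at 165 and 105 TPM, Arf5 at 119 and 93.9 TPM and Arf3 at 37.2 and 46.7 TPM. These 5 genes kept the order Arf2, Arf5, Arf3 under the leading pair in both libraries. Arf6 (chr12:69372150-69373783), which acts at the cell surface and in endosomes rather than at the Golgi, was at 0.02 and 1.84 TPM, from 2 and 148 counts. Its CPM ratio was 72.5, with a 95% counting interval of 19.7 to 604.

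The p24 proteins select cargo and help shape vesicles, and they form 4 subfamilies named alpha to delta. Their sum of 507 and 327 TPM was the lowest of the 8 roles in replicate 2, and 5 of the 8 members with a mean of 10 TPM or more passed 2-fold, against 51.3% of all genes at that level and 56.1% of those from 20 to 50 TPM. In the alpha subfamily, Tmed4 (chr11:6270369-6274870) was at 213 and 76.3 TPM and Tmed9 (chr13:55573732-55597697) at 32.9 and 0.03 TPM, from 972 and 1 counts. The CPM ratio of Tmed9 was 993 (95% counting interval 178 to 39248). Tmed2, the single beta member, was at 17.3 and 68.8 TPM, in the other direction.

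Tmed10, the single delta member, was nearly level at 58.9 and 62.9 TPM. In the gamma subfamily, Tmed1 was at 65.4 and 57.4 TPM, Tmed3 at 75.9 and 34.0 TPM, Tmed5 at 36.5 and 13.8 TPM and Tmed7 at 7.22 and 14.3 TPM. The leading gamma gene was Tmed3 in replicate 1, with 41.0% of the set, and Tmed1 in replicate 2, with 48.1%. Tmed6, Tmed8 and Tmed11 had 0 counts in both libraries.

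Across the 11 sets of paralogs, 8 had the same leading gene in both libraries. The same share over other paralog sets was not computed, so whether this is high or low cannot be said. In the Sec16 and Sec31 sets the other gene had 0 counts in both libraries, so no change of leader could be seen. The sets whose leader differed were Sec24, Arf and the gamma p24 genes. In every set that kept its leader, that gene had at least 9.40 TPM in each library. Sec16a, Sec31a, Copg1, Sec23b and Tmed4 held over 79% of their sets in both.

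**Figure D4:**
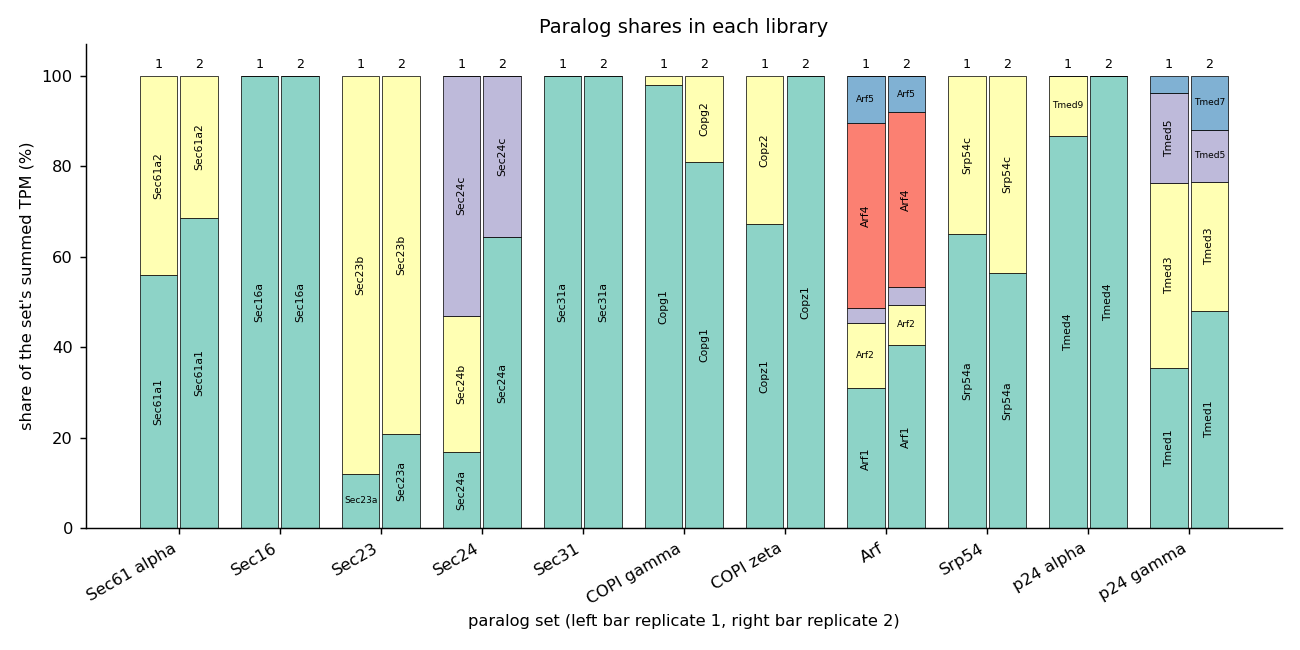
Share of the summed TPM of each paralog set, in percent, that fell to each gene; the left bar of each pair is replicate 1 and the right bar replicate 2, and the labels in the bars name the genes (slices of 7% or less carry none). The largest slice belongs to the same gene in 8 of 11 sets and changes for Sec24, Arf and p24 gamma.

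For Copz2, Sec24b and Tmed9, less than 1% of the counts, scaled for depth, fell to one of the libraries. That is 3 of the 52 members with a mean of 10 TPM or more, against 18.1% of all genes at that level. This background is made up largely of low genes. From 10 to 20 TPM it was 2 of 6 members, against 43.3% of all genes. From 20 to 50 TPM it was 1 of 14, against 16.4%. The deposited tables also carry an interval for each TPM, whose level is not stated. It spanned more than 2-fold for 4 of the 52 members, Sec24b, Copz2, Copg2 and Tmed9, against 21% of all genes, and their low values are uncertain. In 9 of the 52 members the deposited TPM lay outside its own interval in at least one library, against 24.4% of all genes at that level. The shares of 21% and 24.4% were not matched to the levels of the members. For Sec24b in replicate 2 the interval ran from 0.258 to 1.34 TPM beside a value of 0.04, and for Copz2 from 0.113 to 0.863 beside 0.05; the others were Ssr1, Ssr3, Spcs2, Sec13, Copz1, Arf1 and Arf4.

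TPM depends on the effective length that was estimated for each gene in each library, and this was compared with the counts alone. In CPM, 20 of 52 members differed 2-fold, against 51.2% of all genes. The direction of the difference was not the same in TPM and in CPM for 4 members, Sec61a1, Sec61a2, Sec62 and Arf4, against 6.45% of all genes. Sec61a1 had 6652 and 6389 counts, a CPM ratio of 1.06, and Sec61a2 had 1887 and 2109, a ratio of 1.09. For Arf4 the counts were 17071 and 17582, so this gene was level by either unit.

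**Figure D5:**
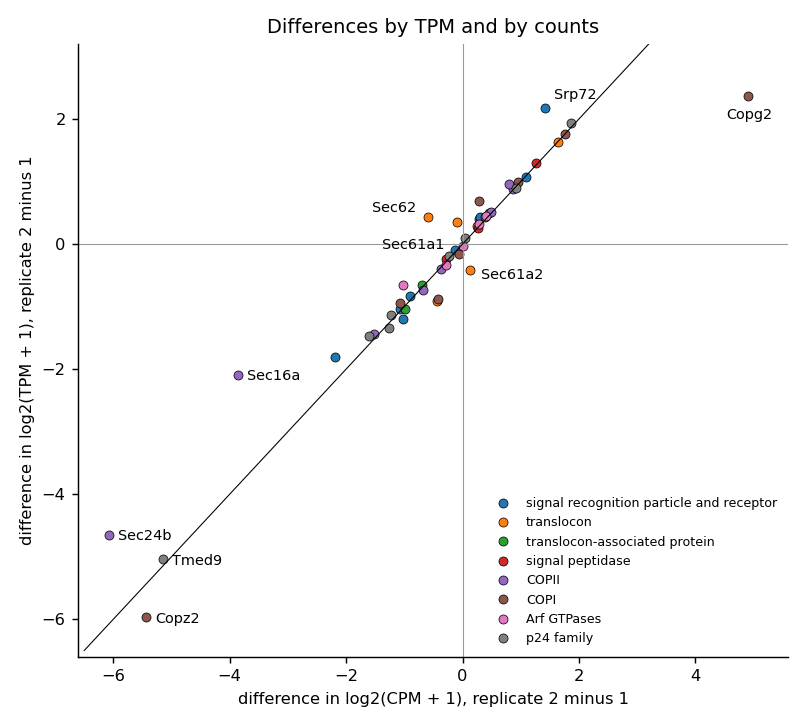
Difference between the libraries (replicate 2 minus replicate 1) in log2(CPM + 1) on the horizontal axis and in log2(TPM + 1) on the vertical axis for the 52 members with a mean of 10 TPM or more, coloured by role; the line marks equal differences. Most members lie on the line, Copg2, Sec16a, Sec24b, Srp72 and Sec62 lie off it, and Sec62, Sec61a1 and Sec61a2 fall in the quadrants of opposite sign.

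Among the 37 members with 2 or more annotated transcripts and 5 TPM or more in each library, 29 had the same leading transcript, or 78.4%. The same share over all genes was not computed, so whether this is high or low for these libraries cannot be said. The 29 had a median mean level of 135 TPM and the 8 others one of 54.2 TPM. In 8 members, Sec61b, Ssr2, Ssr3, Spcs1, Sec23a, Arf1, Arf3 and Tmed7, the same transcript held over 90% in both. The 8 whose leader differed were Srp72, Srprb, Sec61g, Sec62, Sec16a, Sec23b, Copa and Tmed5. In Tmed7 the transcript that held all of the TPM, Tmed7-202, is annotated as a retained intron.

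Several members are known to be induced when unfolded proteins build up in the ER, and their promoters were searched for the elements of that response. The search was chosen after the levels had been seen, and all of its 3 motifs are given. RefSeq promoters of build GRCm38.p6, from 250 bases before to 50 bases after each gene start, were found for 50 of the 59 members. The 8 bases TGACGTGG, the core of the element that the factors XBP1 and ATF6 bind, were present on either strand for 6 of 50 member genes, or 12%, against 0.714% of all 27025 genes. The longer ER stress response element, CCAAT followed by 9 bases of any kind and CCACG, was present for 0 of 50, against 0.137% of all genes, and CACGTG for 6 of 50, or 12%, against 8.09%. The last 5 letters of the longer element can coincide with the reverse complement of TGACGTGG. A match is a description of the letters and says nothing of binding.

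The 6 genes that hold the element are shown. Only bases near the start were searched, so a place close to it follows from the search. The windows of 30 bases are given 5′ to 3′ along the gene, with the 8 bases in capitals; where the capitals begin with CC the motif is on the other strand. They lie at chr11:59228228-59228257 (minus strand) for Arf1, chr7:114254690-114254719 (minus) for Copb1, chr9:98563713-98563742 (plus) for Copb2, chr1:157506741-157506770 (plus) for Sec16b, chr12:59011993-59012022 (minus) for Sec23a and chr3:123267459-123267488 (plus) for Sec24d.
Arf1: gcggcaggcgcTGACGTGGctgccgtcagc
Copb1: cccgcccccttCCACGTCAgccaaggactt
Copb2: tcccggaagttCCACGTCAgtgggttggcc
Sec16b: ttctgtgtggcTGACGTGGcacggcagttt
Sec23a: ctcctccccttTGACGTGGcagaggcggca
Sec24d: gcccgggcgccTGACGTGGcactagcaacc

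The first base of the motif, counted from the RefSeq start, was at -28 in Copb1, -7 in Copb2, -44 in Sec16b, 7 in Sec23a and -26 in Sec24d. In Arf1 it was at -84 from one RefSeq start and at 22 from another. By the outermost gene starts of release M21, the motif begins inside the gene in all 6. The levels of these genes spanned the whole range: Arf1 was near the top of the members, and Sec16b and Sec24d had no reads. Arf1, Copb1, Copb2 and Sec23a were each higher in replicate 2, and of these Copb1 alone passed 2-fold. Of the 52 members with a mean of 10 TPM or more, 25 were higher in replicate 2. Whether the element bears on the level of a gene was not tested. Copb1 had the largest ratio of the 6. The 250 bases before its RefSeq start (chr7:114254681-114254930, minus strand) are shown to place the element at the end nearest that start.
Copb1: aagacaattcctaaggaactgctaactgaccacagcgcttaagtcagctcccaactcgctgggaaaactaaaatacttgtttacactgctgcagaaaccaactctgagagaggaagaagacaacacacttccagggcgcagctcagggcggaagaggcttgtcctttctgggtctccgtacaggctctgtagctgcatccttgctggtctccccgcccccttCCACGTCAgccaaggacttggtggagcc

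Genes that work with the members were taken from 7 lists of 91 genes, to place the members among their partners. Of the 91, 72 were detected in both libraries, 14 in one and 5 in neither. With a mean of 10 TPM or more there were 78, of which 31 differed 2-fold, or 39.7%, with 15 higher in replicate 2 and 16 higher in replicate 1; the background is the 51.3% given above. Their median difference was -0.29, beside -0.06 for the members.

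The subunits of oligosaccharyltransferase, which adds sugars to chains as they leave the translocon, were all 12 detected in both libraries. Tmem258 was at 760.0 and 547 TPM and Ost4 at 556 and 635 TPM, above every member. Sec11a, a catalytic subunit of the signal peptidase to which the Spcs proteins belong, was at 343 and 128 TPM, and Emc4, of a membrane insertase, at 203 and 158 TPM. Emc1 of the same insertase had 3069 and 0 counts. Among the chaperones, of which 12 of 14 were detected in both, the BiP gene Hspa5 was at 724 and 459 TPM and Calr at 545 and 546 TPM. Hyou1 had 3 and 1636 counts.

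Of the coat regulators, Tfg was at 139 and 262 TPM and Sar1a, the GTPase that starts the COPII coat, at 192 and 153 TPM. Of the cargo receptors, Cnih1 was at 278 and 186 TPM and Ergic3 at 221 and 238 TPM, and Kdelr3 had 0 counts in both. Of the SNAREs and tethers, which fuse the vesicles, 10 of 15 differed 2-fold, against 51.3% of all genes with a mean of 10 TPM or more. Trappc1 was at 111 and 227 TPM and Sec22b at 153 and 165 TPM, while Sec22a had 1 and 6182 counts, Stx18 had 800.0 and 0, and Trappc3 had 0 and 757. Sec22c had 0 and 1433 counts, Golga2 had 0 and 174, and Bet1 had 1 and 0.

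Of the 10 genes of the unfolded protein response, 4 were detected in both libraries, 3 in one alone and 3 in neither. None of the 4 differed 2-fold, against 51.3% of all genes with a mean of 10 TPM or more. That count leaves out the 3 genes read in one library alone, Ern1, Edem1 and Atf6. Ern1 was at 0.13 and 6.99 TPM. Xbp1 was at 142 and 147 TPM and Atf4 at 152 and 91.9 TPM. Ddit3 had 0 and 3 counts, Trib3 had 1 and 1, and Eif2ak3 had 0 in both. Edem1 had 0 and 797 counts, and Atf6 had 946 and 0. In the promoter search, TGACGTGG was present for 3 of the 78 partner genes with a promoter (3.85%), and the ER stress response element for 6 of 78 (7.69%), which were Hspa5, Hsp90b1, Calr, Canx, Pdia6 and Creld2.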

How the data were processed

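For each of the 2 libraries the authors deposited tables by gene and by transcript. Per the file headers, these hold expected counts, TPM and FPKM (as point estimates and posterior means), each transcript's percent of its gene's TPM, and lengths. Posterior SDs and interval bounds in the deposited tables were treated as score values without a fixed range. The deposited TPM covers all rows, spike-ins included. The text deposited with the tables names assembly mm10 and annotation release M4; the aligner, quantifier and strand setting were not given in the sources used here. Symbols, classes and coordinates came by gene ID from GENCODE release M21 on the same assembly, which matched 42462 of 43346 IDs; promoters came from RefSeq.

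The members and lists were chosen with earlier results of these data known. The labels give one group, so no test was run and no p-value is given. All members could be named, with both values for the 3 highest of each role, those past 2-fold, those at 0 counts and the paralog sets; from the partner lists the 2 highest were named and those with 5 or fewer counts. Other genes were named after their values were seen. Thresholds were a TPM of 1 for detection, a mean TPM of 10 and a log2 difference of 1 for 2-fold (pseudocount 1), and a floor of 3 counts. CPM used gene counts of 27395002 and 27977544. The libraries were not copies of each other (chi-square per degree of freedom 660.2 over 12198 genes). Shared stretches of 31 bases, exon overlaps, pseudogene copies and promoter motifs were searched after the levels had been seen. Counting intervals of ratios are exact, at 95%. Python 3.11.15, pandas 2.3.3 and numpy 2.4.6 were used, and edgeR 4.0.16 (TMM) and DESeq2 1.42.0 only for scaling factors on counts rounded to whole numbers. Alternatives changed the pseudocount, the level filter, the unit, the scaling, the effective length and the libraries used.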

Additional observations from a re-analysis of the deposited data

Results flagged for a closer look

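The pseudogene Spcs2-ps, left out of the members by its name, held expected counts of 4.05 in replicate 1 and 5.07 in replicate 2, above the 3 counts that a count of 0 allows. It stands here as a signal outside the genes described, and 5.89% of the 31-base stretches of Spcs2 also occur in it. Spcs2 itself had 12393 and 10389 counts.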

How the results depend on the processing

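Of 59 alternatives tried for the counts, medians and sums, 57 stayed within the limits used, but these were wide. For medians the limit was the typical spread of a member. Within it, the median absolute difference of the members went from 0.88 to 0.44 at a mean TPM of at least 50. The place of the members against all genes depended on the level filter. With no filter, 20 of 59 members differed 2-fold, or 33.9%, above the 16.1% of all gene rows, most of which were read at 0 or near it. At a mean TPM of at least 50 the count of 2-fold members was 7 of 32, or 21.9%, instead of 19 of 52, or 36.5%. The background also fell, from 51.3% to 29.9%. With TPM rescaled to gene rows alone the summed TPM of the members was 6278 instead of 5804, since spike-ins leave the total. Detection from a single library gave 50 to 52 members and 77 to 81 partner genes, and the summed TPM was then 5613 to 5996. Leaving out a library gives no difference, as one library remains. No paired analysis was possible because the labels give one group. Added after the data were seen, one effective length for both libraries gave 18 of 52 members past 2-fold (34.6%, against 50.9% of all genes). Leaving out members that share sequence or exon bases with other genes gave 15 of 34, a share of 44.1% instead of 36.5%, against 51.3%. For single members, 4 of 364 alternatives took a 2-fold member under the threshold and 6 brought one past it. For members under 2-fold, a further 14 changed the difference by more than its spread without crossing the threshold. These members were Sec61a1, Sec61a2, Sec62, Copa and Arf4. Members past 2-fold were held against the threshold alone, and some of them changed much in size. With TMM-scaled CPM, Copg2 went from 2.37 to 4.90 and Sec16a from -2.09 to -3.87. The calls of Srp9 (-0.99) and Ssr4 (-0.95) were lost with one effective length, that of Ssr4 also with DESeq2 factors (-0.99), and that of Srp68 with a pseudocount of 5 (0.93). Cope and Arf2 passed 2-fold in CPM, at -1.09 and -1.04 with TMM scaling, and Sec24a at 1.00 with a pseudocount of 0.1. The differences of Sec61a1, Sec61a2 and Sec62 were -0.10, 0.11 and -0.61 in CPM with TMM scaling, opposite in sign to those in TPM. Little can be said of low genes: 43.3% of genes from 10 to 20 TPM had less than 1% of their scaled counts in one of the libraries. Both libraries came from 1 cell-equivalent of RNA, and the part of this input was not tested.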
